A study of Mus musculus with 8 samples.

Results

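The genes described here are 36 mouse genes of ribosome biogenesis and the nucleolus, chosen by name from the 50600 gene names of an RNA-seq table of JUN TetON ESCs. The choice was made with earlier results of these data known. All 36 were found in the table, and all 36 were among the 10222 genes with a mean value of at least 5 that were tested. By role they are 4 proteins of box C/D snoRNPs, 5 of box H/ACA snoRNPs, 5 of RNA polymerase I, 5 of small subunit (40S) assembly, 12 of large subunit (60S) assembly and 5 nucleolar regulators and scaffolds. JUN TetON ESCs are mouse embryonic stem cells (genotype c-Jun_TetOn, OG2 transgenic, strain given as mix, passage 12), in which doxycycline switches on c-Jun and the cells then leave pluripotency. They were kept free of feeder cells in 2i medium with PD0325901, Chir99021 and LIF. All 4 groups were given 2 μg/ml doxycycline, the DMSO control included, and according to the labels were taken after 6 h. Beside doxycycline a group received the solvent DMSO, the BRG1 bromodomain inhibitor PFI-3, the BRD7/BRD9 bromodomain inhibitor BI-9564, or both compounds (P+B). The legends of the study give a longer induction than the labels, and the labels name no dose for the compounds. The comparison asks what happens to transcripts of the nucleolus when JUN is induced while these bromodomains, which read histone acetylation in BAF chromatin remodeling complexes, are blocked. No library without doxycycline was among those compared, so the values do not show what JUN itself did to these genes.

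Ribosomes are built in the nucleolus. RNA polymerase I, with the factor UBF, copies the ribosomal DNA into a long precursor RNA, which snoRNPs modify and which many assembly factors cut, fold and join to ribosomal proteins. Box C/D snoRNPs guide the methylation of ribose and box H/ACA snoRNPs the conversion of uridine to pseudouridine. Pluripotent stem cells divide fast and keep large, active nucleoli, and the transcription factor MYC is known for driving many of these genes through E-box sequences.

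Each group had 2 libraries, which gave 8 in all. Nothing says that they came from separate cultures, so p-values measure the spread between these libraries, which may be technical. The values are TPM made whole numbers, a share of the transcripts of a library per gene length, with sums of 991574 to 991897 per library. The read number behind a TPM value is lost, so depth is unknown. In each library 10285 to 10451 genes reached a value of 5, and the Pearson correlation of replicates across genes was 0.964 to 0.971 on the log2 scale, which describes the libraries, since genes are not independent replicates. All 6 stem cell markers were present, and *Pou5f1* had a value of 1104 to 1333. They did not keep one level: with PFI-3 6 of 6 were higher than with DMSO (median 0.44 in log2), with BI-9564 5 of 6 were lower (−0.25), and with P+B 3 were lower and 3 higher (−0.03). None was called in limma, while with P+B *Esrrb* (0.74) and *Klf4* (0.52) had adjusted p-values of 0.00486 and 0.03308 with replicate number as a block. Summed markers reached 0 to 5 per library for 8 genes of fibroblasts (4 at 0 in all libraries), 2 to 6 for 6 of endoderm (3 at 0) and 12 to 20 for 6 of trophoblast (1 at 0). Within the last list *Cdx2* was 1 and 0 under DMSO but 5 and 10 under P+B, below the mean needed for a test. Others of that list went the other way, also below that mean. *Hand1* was 4 and 6 under DMSO but 1 and 1 under P+B, and *Gata3* was 6 and 2 but 1 and 1. The part of these markers in the results below was not tested. In bulk samples, fewer cells of a type and less RNA per cell cannot be told apart. The induced gene *Jun* itself had a value of 1569 to 3011. It was lower with P+B than with DMSO (−0.37, limma adjusted p = 0.4366, or 0.001558 with the block) and than with BI-9564 (−0.44, 0.7689, or 0.006352 with the block). With PFI-3 alone *Jun* was about as low, at −0.35 against DMSO (limma adjusted p = 0.8761, or 0.1164 with the block). P+B against PFI-3 was −0.02, and BI-9564 against PFI-3 was 0.42 (limma adjusted p = 0.5245, or 0.009608 with the block). The part of *Jun* in the results was not tested either.

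The 36 genes made up 1.04% to 1.21% of the total value of a library. Levels ranged widely, from a mean over the 8 libraries of 36.2 for *Polr1e*, the Pol I subunit PAF53, to 4547 for *Npm1*, the nucleolar chaperone nucleophosmin. After *Npm1*, the highest mean belonged to *Ncl* (nucleolin), with 1213. *Npm1* alone therefore weighed much in the sum, and without it the sum was 5916 to 7315 per library.

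Nearly all of the genes, 33 of 36, had lower values with P+B than with DMSO, by small amounts. The median change was −0.21 on the log2(value + 1) scale, the scale of all changes here, which understates the change of low genes. This is a median fold of 0.865, whereas the median over all 10222 tested genes was 0.06. Without DMSO replicate 2 the median of the 36 was −0.12. Lower values were found in 91.7% of the 36 genes and in 41.7% of all tested genes. The changes ran from −0.56 for *Polr1b* to 0.33 for *Rrp12*, and no gene reached the fold change of 1.5 (0.585 in log2) used as a threshold. A gene was called when it passed that fold and an adjusted p of 0.05 in limma, with Benjamini-Hochberg adjustment over all tested genes. By this rule 0 of the 36 genes were called with P+B against DMSO, against 4.0% of all tested genes (409 of 10222). At an unadjusted p under 0.05 in limma there were 14 of the 36, all lower, beside 2306 of all 10222 tested genes, lower and higher together.

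**Figure D1:**
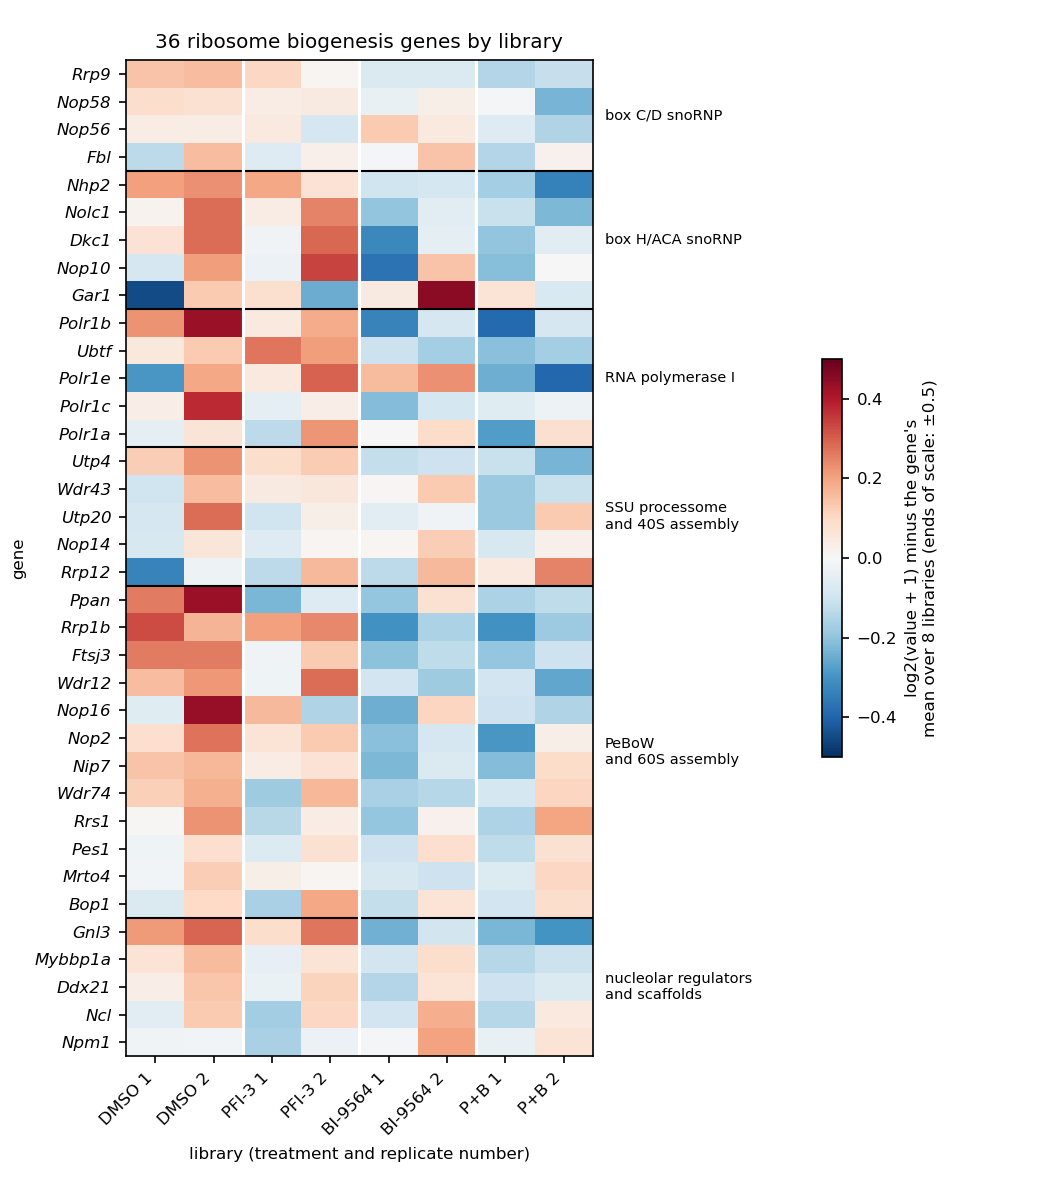
Heat map of the 36 genes (rows, grouped by role) in the 8 libraries (columns), where color gives log2(value + 1) minus the mean of that gene over all libraries. The DMSO columns are mostly red and the P+B columns mostly blue, and within a treatment replicate 2 tends to be redder than replicate 1.

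By the adjusted p alone, which was looked at after the values were seen, 4 of the 36 genes (11.1%) were lower with P+B, against 3.35% of all tested genes. These were *Nhp2*, *Gnl3*, *Ftsj3* and *Rrp1b*, from 3 of the 6 role groups. When replicate number was a block in the fit, 11 of 36 (30.6%) passed, against 6.73% of all tested genes, and again 0 passed with the fold. The 7 added genes were *Polr1b*, *Ppan*, *Utp4*, *Ubtf*, *Dkc1*, *Nop2* and *Mybbp1a*. The count of 4 was not stable: leaving out any 1 of the 8 libraries left 0 to 2. In 22 genes (61.1%) both P+B libraries lay under both DMSO libraries, which was so for 18.9% of all tested genes. Each of these shares stood above its background, but the 36 genes were chosen with earlier results of these data known. The comparison with all tested genes is therefore no independent test of the 36.

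**Figure D2:**
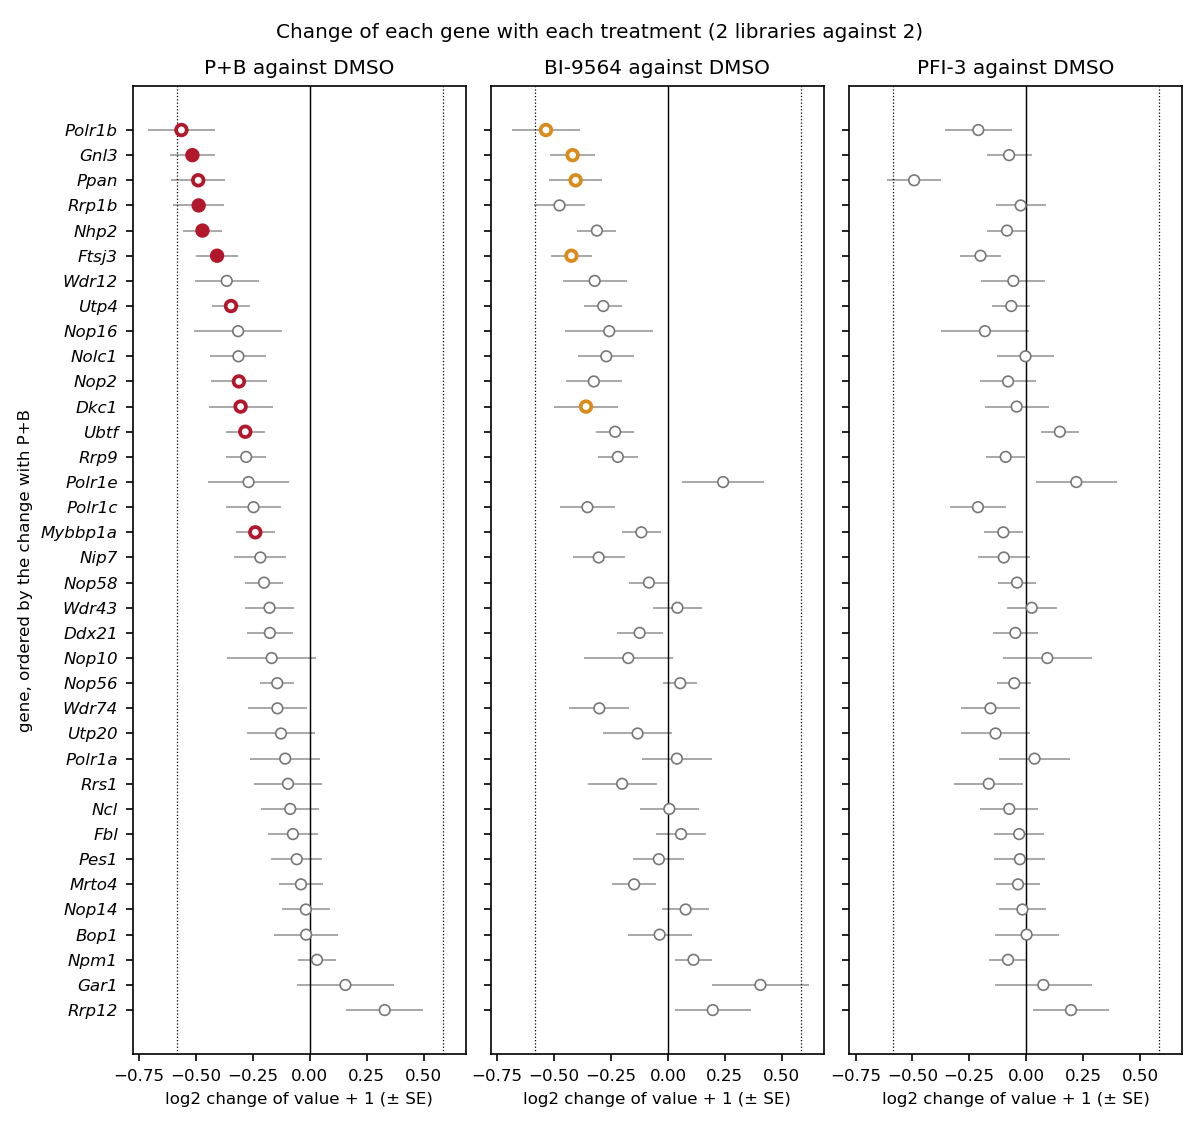
Log2 change of each of the 36 genes (points) with its SE (bars) for P+B, BI-9564 and PFI-3 against DMSO, ordered by the change with P+B. Filled points had an adjusted p under 0.05, thick colored rings had one only with the replicate block, and the dotted lines mark a fold of 1.5. With P+B 33 points lie left of 0 and none beyond the left dotted line, whereas the PFI-3 points crowd around 0.

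*Nhp2* encodes a core protein of box H/ACA snoRNPs, which also belongs to telomerase. Its values were 292 and 297 under DMSO, 290 and 266 under PFI-3, 236 and 238 under BI-9564 and 225 and 200 under P+B. The P+B and BI-9564 libraries all lay under the DMSO and PFI-3 libraries. Means were 294 ± 3.54 with DMSO and 212 ± 17.7 with P+B (SD, n = 2), a log2 change of −0.47 ± 0.0861 (SE, limma adjusted p = 0.02285). *Gnl3* encodes nucleostemin, a nucleolar GTPase abundant in stem cells, and is listed at 177 and 187 under DMSO, 162 and 184 under PFI-3, 129 and 143 under BI-9564 and 130 and 124 under P+B. The P+B mean was 127 ± 4.24 against 182 ± 7.07 with DMSO (SD, n = 2), a log2 change of −0.52 ± 0.0989 (SE, limma adjusted p = 0.02675), still short of the fold threshold.

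*Ftsj3* encodes a methyltransferase-like protein of pre-60S particles. It had 166 in both DMSO libraries, 137 and 152 under PFI-3, 120 and 127 under BI-9564 and 121 and 129 under P+B. The log2 change with P+B was −0.41 ± 0.0911 (SE, limma adjusted p = 0.04429), and the BI-9564 and P+B libraries covered the same range. *Rrp1b*, a nucleolar protein of large subunit processing, had 87 and 78 under DMSO, 80 and 82 under PFI-3, 56 and 62 under BI-9564 and 56 and 61 under P+B. Here the groups split in 2 levels, DMSO with PFI-3 and BI-9564 with P+B. The log2 change with P+B was −0.49 ± 0.111 (SE, limma adjusted p = 0.04576).

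These 4 genes lie on chromosomes 11, 14 and 17 of GRCm38 (mm10), by GENCODE M21. *Nhp2* is at chr11:51619735-51623714 on the plus strand, *Gnl3* at chr14:31012433-31019152 on the minus strand, *Ftsj3* at chr11:106249142-106256079 on the minus strand and *Rrp1b* at chr17:32036100-32062865 on the plus strand. Except for *Ftsj3*, each is overlapped by a gene on the other strand, namely *Rmnd5b* for *Nhp2*, *Pbrm1* for *Gnl3* and *Hsf2bp* for *Rrp1b*. The strand setting of the counting is not given in the sources used here, so reads of such pairs may not have been told apart, which was not tested. *Pbrm1* encodes a bromodomain subunit of PBAF, a subtype of BAF complexes that also contains BRG1. The 120 bases before the outermost annotated start of these 4 genes are shown because they carry the lowest adjusted p-values, a choice made after the values were seen, and CG dinucleotides are in capitals.
Nhp2, chr11:51619615-51619734, plus strand: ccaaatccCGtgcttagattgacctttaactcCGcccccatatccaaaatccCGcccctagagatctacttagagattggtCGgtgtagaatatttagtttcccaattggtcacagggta
Gnl3, chr14:31019153-31019272, minus strand: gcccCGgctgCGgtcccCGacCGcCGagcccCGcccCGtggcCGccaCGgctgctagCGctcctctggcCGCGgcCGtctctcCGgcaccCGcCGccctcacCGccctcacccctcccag
Ftsj3, chr11:106256085-106256204, minus strand: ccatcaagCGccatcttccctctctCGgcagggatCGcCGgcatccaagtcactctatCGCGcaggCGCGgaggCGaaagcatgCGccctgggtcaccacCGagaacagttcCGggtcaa
Rrp1b, chr17:32035980-32036099, plus strand: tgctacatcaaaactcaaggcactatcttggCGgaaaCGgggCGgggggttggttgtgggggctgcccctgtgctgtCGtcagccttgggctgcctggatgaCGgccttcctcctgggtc
The sequences are from RefSeq on GRCm38.p6 and read 5′ to 3′ along each gene. They hold 4, 17, 12 and 5 CG dinucleotides in this order, so genes with much the same change differ in how rich in CG their upstream bases are.

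**Figure D3:**
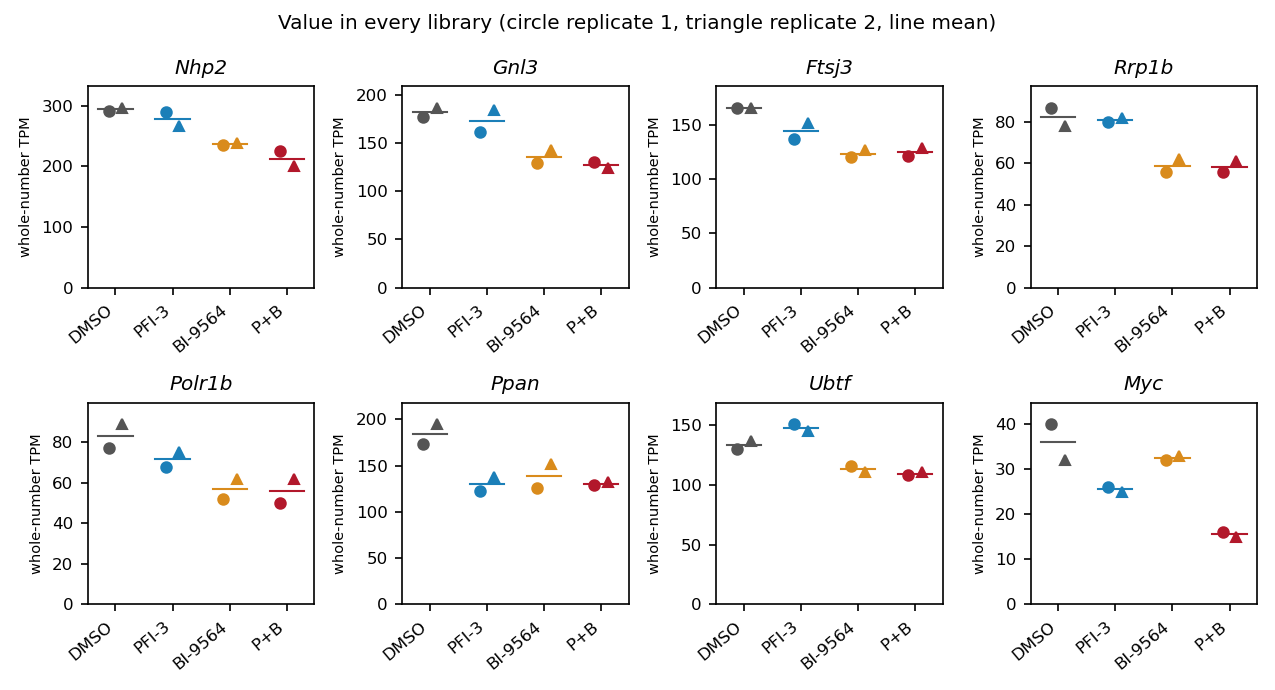
Whole-number TPM (vertical axes, from 0) in each of the 8 libraries for *Nhp2*, *Gnl3*, *Ftsj3*, *Rrp1b*, *Polr1b*, *Ppan*, *Ubtf* and *Myc*, with circles for replicate 1, triangles for replicate 2 and lines for the mean. In *Rrp1b* the BI-9564 and P+B points (56 to 62) lie under all DMSO and PFI-3 points (78 to 87), *Ppan* is lower in all 3 treatments, and *Myc* has its lowest values, 16 and 15, with P+B.

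The 4 box C/D genes were all lower with P+B, with a median of −0.17, and none passed the adjusted p. *Rrp9*, a protein particular to the U3 snoRNP, had the largest change. Its values were 115 and 116 under DMSO, 112 and 105 under PFI-3, 99 and 99 under BI-9564 and 94 and 96 under P+B. This ordering left no overlap between DMSO and either BI-9564 or P+B, but the log2 change of −0.28 had an adjusted p of 0.1069 in limma. *Nop56*, a core scaffold and the most abundant of the 4, had 505 in both DMSO libraries, 510 and 465 under PFI-3, 539 and 510 under BI-9564 and 471 and 444 under P+B. It was thus on opposite sides of the control with BI-9564 (0.05) and P+B (−0.14), neither past the test. *Nop58*, the other core scaffold, had a change of −0.20. *Fbl*, the methyltransferase fibrillarin, had changes of −0.07 with P+B and 0.06 with BI-9564.

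Of the 5 box H/ACA genes 4 were lower with P+B, with a median of −0.30. *Dkc1*, the pseudouridine synthase dyskerin, had 162 and 187 under DMSO, 152 and 188 under PFI-3, 123 and 149 under BI-9564 and 134 and 148 under P+B. In each pair of equal replicate number the BI-9564 and P+B values were the lower ones, while the replicates themselves differed as widely. The log2 change with P+B was −0.30 ± 0.141 (SE, limma adjusted p = 0.2476), and with the replicate block the adjusted p was 0.034. *Nolc1*, a chaperone of snoRNPs, had a change of −0.31 and *Nop10* one of −0.17. The exception was *Gar1*, the remaining core protein, at 80 and 120 under DMSO, 116 and 92 under PFI-3, 113 and 150 under BI-9564 and 115 and 104 under P+B. Its DMSO replicates differed more than any of its group means, and the change of 0.16 ± 0.212 (SE) could have either sign.

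All 5 RNA polymerase I genes were lower with P+B, with a median of −0.27. *Polr1b*, the second largest catalytic subunit, had the largest change of the 36, with 77 and 89 under DMSO, 68 and 75 under PFI-3, 52 and 62 under BI-9564 and 50 and 62 under P+B. Its log2 change of −0.56 ± 0.148 (SE) had an adjusted p of 0.06947 in limma and of 0.008182 with the replicate block, since replicate 2 was higher in every group. *Ubtf*, which encodes UBF and has the highest mean of the 5, had 130 and 137 under DMSO, 151 and 145 under PFI-3, 116 and 111 under BI-9564 and 108 and 111 under P+B. The single compounds lay on opposite sides of DMSO. PFI-3 stood above DMSO (0.15, limma adjusted p = 0.8409) and BI-9564 below it (−0.23, limma adjusted p = 0.2718). The change with P+B was −0.28 ± 0.0849 (SE, limma adjusted p = 0.0982), or 0.04782 with the replicate block as an adjusted p. The other 3 genes had changes of −0.11 (*Polr1a*, the largest subunit), −0.25 (*Polr1c*, shared with RNA polymerase III) and −0.27 (*Polr1e*).

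Small subunit assembly was nearest to 0, with a median of −0.13 and 4 of 5 genes lower with P+B. *Utp4*, a protein of the SSU processome, had both the highest mean and the largest change. Its values were 214 and 230 under DMSO, 209 and 215 under PFI-3, 181 and 183 under BI-9564 and 182 and 167 under P+B. BI-9564 and P+B libraries all lay below the others, and the log2 change with P+B was −0.35 ± 0.083 (SE, limma adjusted p = 0.05455, or 0.02394 with the replicate block). *Rrp12*, a factor in the export and maturation of subunits, was the member with the highest change upward, at 45 and 56 under DMSO, 52 and 64 under PFI-3, 52 and 64 under BI-9564 and 59 and 68 under P+B. All 3 treatments were on the higher side of DMSO for *Rrp12*, with P+B at 0.33 ± 0.168 (SE, limma adjusted p = 0.2919). The other 3, the processome proteins *Wdr43* and *Utp20* and the assembly factor *Nop14*, had changes of −0.18, −0.13 and −0.02.

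In large subunit assembly, the biggest group, all 12 genes were lower with P+B, with a median of −0.26. Beside *Ftsj3* and *Rrp1b*, the replicate block brought *Ppan* and *Nop2* under an adjusted p of 0.05. *Ppan*, the homolog of the fly gene peter pan, had 173 and 195 under DMSO, 123 and 138 under PFI-3, 126 and 152 under BI-9564 and 129 and 132 under P+B. All 3 treatments thus lay below DMSO at much the same level. For P+B the log2 change was −0.49 ± 0.117 (SE, limma adjusted p = 0.05455, or 0.008377 with the replicate block). *Nop2*, a methyltransferase of the large rRNA, had 151 and 172 under DMSO, 149 and 156 under PFI-3, 123 and 134 under BI-9564 and 116 and 145 under P+B. No P+B value reached the lower DMSO value, and the change of −0.31 ± 0.124 (SE) had an adjusted p of 0.1885 in limma and of 0.04725 with the block. *Nip7*, with the highest mean of the group, had 172 and 175 under DMSO, 160 and 164 under PFI-3, 133 and 148 under BI-9564 and 134 and 166 under P+B, a change of −0.22 with P+B. The PeBoW complex, 3 proteins that mature the large subunit together, was uneven. Its members *Bop1* and *Pes1* had changes of −0.02 and −0.06, and *Wdr12* one of −0.36, with adjusted p-values of 0.9625, 0.8035 and 0.1754 in limma. The remaining factors of pre-60S particles had changes of −0.31 (*Nop16*), −0.14 (*Wdr74*), −0.10 (*Rrs1*) and −0.04 (*Mrto4*).

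Among the nucleolar regulators and scaffolds 4 of 5 were lower with P+B, with a median of −0.18. *Mybbp1a*, a nucleolar protein known as a partner of MYB, had 404 and 430 under DMSO, 374 and 404 under PFI-3, 361 and 409 under BI-9564 and 349 and 357 under P+B. Only with P+B were both libraries clear of DMSO for *Mybbp1a*, at a change of −0.24 ± 0.0855 (SE, limma adjusted p = 0.1489, or 0.03431 with the block). *Npm1* had 4485 and 4488 under DMSO, 4049 and 4450 under PFI-3, 4513 and 5211 under BI-9564 and 4418 and 4762 under P+B. These groups overlapped, and the change with P+B was 0.03 ± 0.0817 (SE). The abundant scaffold *Ncl* had a change of −0.09 and the helicase gene *Ddx21* one of −0.18.

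The single compounds were set against the same 2 DMSO libraries, so the 3 comparisons with DMSO are not independent. With BI-9564, 26 of 36 genes were lower, with a median of −0.19 beside 0.02 for all tested genes, of which 45.9% were lower. The median was −0.0852 without DMSO replicate 2 and −0.11 without BI-9564 replicate 1. None of the 36 was called in limma, where 0.108% of all tested genes were called. An unadjusted p under 0.05 was reached by 15 of the 36, all of them lower, and by 1523 of all 10222 tested genes, lower and higher together. In 18 genes (50%) both BI-9564 libraries lay under both DMSO libraries, against 18.3% of all tested genes. With the replicate block 5 genes (13.9%) were lower at an adjusted p under 0.05, against 2.01% of all tested genes. The 5 were *Polr1b* (−0.54, adjusted p = 0.03235), *Ftsj3* (−0.42, 0.03288), *Ppan* (−0.41, 0.04342), *Gnl3* (−0.42, 0.04342) and *Dkc1* (−0.36, 0.04629), in limma with the block. Without the block their adjusted p-values in limma were 0.1772, 0.1202, 0.1855, 0.1338 and 0.2947 in this order. By role, large subunit assembly (12 of 12 lower, median −0.30) and the box H/ACA genes (4 of 5, −0.27) were furthest from 0, whereas the box C/D genes (2 of 4, −0.01) and small subunit assembly (2 of 5, 0.04) stood near the median of all genes.

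**Figure D4:**
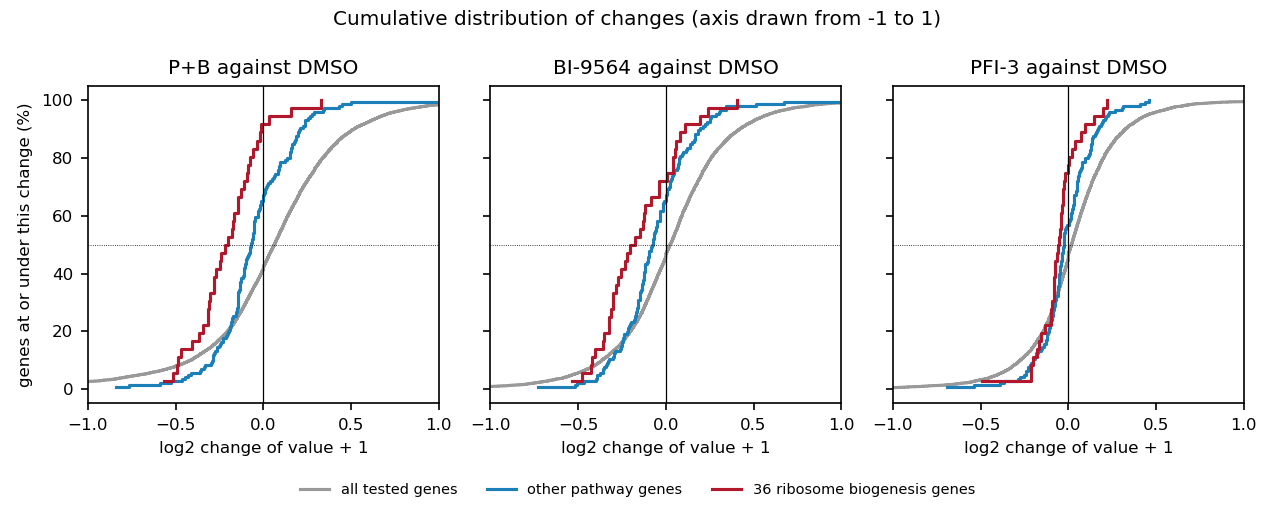
Cumulative share of genes (vertical axis, %) at or under each log2 change (horizontal axis) for the 36 genes, the other tested genes of the pathway and all tested genes, for each treatment against DMSO. Over its middle, the curve of the 36 genes runs left of that of all tested genes with P+B (medians −0.21 and 0.06) and BI-9564 (−0.19 and 0.02), and closer to it with PFI-3 (−0.05 and 0.02).

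PFI-3 left 28 of 36 genes lower than DMSO, with a median of −0.05 beside 0.02 for all tested genes (45.2% lower). None was called in limma, as was the case for 0% of all tested genes. Only 1 of the 36 had an unadjusted p under 0.05, a smaller share than the 694 of all 10222 tested genes, lower and higher together. The smallest adjusted p of the 36 was 0.5061. With the block 0 genes passed, against 0% of all tested genes. In 8 genes (22.2%) both PFI-3 libraries lay under both DMSO libraries, against 12.8% of all tested genes. The gene that led was *Ppan*, at −0.49 ± 0.117 (SE), as large a change as with P+B, but with an adjusted p of 0.5061 in limma and 0.147 with the block. *Polr1c* and *Polr1b* followed at −0.21 each and *Ftsj3* at −0.20. The median of PFI-3 turned to 0.01 without DMSO replicate 2, so its sign rested on that library.

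Compared directly with PFI-3, P+B gave 29 of 36 genes lower, with a median of −0.14 beside 0.03 for all tested genes (45.1% lower). None was called in limma, against 1.31% of all tested genes. An unadjusted p under 0.05 was found in 8 of the 36, all lower, beside 1692 of all 10222 tested genes, lower and higher together. In 17 genes (47.2%) both P+B libraries were under both PFI-3 libraries, against 18.9% of all tested genes. With the block 4 genes (11.1%) were lower at an adjusted p under 0.05, against 3.96% of all tested genes. These were *Ubtf* (−0.43, adjusted p = 0.01989), *Nhp2* (−0.39, 0.02323), *Gnl3* (−0.44, 0.02445) and *Rrp1b* (−0.46, 0.04383), by limma with the block. Without the block their adjusted p-values in limma were 0.05653, 0.07804, 0.07896 and 0.09193, so none passed. For *Ppan* the difference between P+B and PFI-3 was 0.00 ± 0.117 (SE).

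BI-9564 against PFI-3 gave 24 of 36 genes lower, with a median of −0.08 beside 0.00 for all tested genes (48.7% lower). There were 0 calls in limma, against 0.108% of all tested genes. An unadjusted p under 0.05 was found in 7 of the 36, of which 6 were lower, and in 1448 of all 10222 tested genes, lower and higher together. With the block 1 gene (2.78%) was lower at an adjusted p under 0.05, against 1.71% of all tested genes, a share close to the background. It was *Ubtf*, at −0.38 (adjusted p = 0.04528 in limma with the block, 0.1294 without it). The sign of this median rested on BI-9564 replicate 1, without which it was 0.00.

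Between P+B and BI-9564 the 36 genes were hardly apart. The median was −0.05 beside 0.02 for all tested genes, and 24 of the 36 were lower, against 44.3% of all tested genes. In limma 0 of 36 were called, against 0.196% of all tested genes. An unadjusted p under 0.05 was found in 2 of the 36, a smaller share than the 815 of all 10222 tested genes, lower and higher together. With the block 0 were lower at an adjusted p under 0.05, against 0.861% of all tested genes. *Polr1e* differed most, at 40 and 42 with BI-9564 against 30 and 27 with P+B, a log2 difference of −0.51 ± 0.179 (SE, limma adjusted p = 0.5021). *Rrp1b* differed by −0.01 ± 0.111, *Ftsj3* by 0.02 ± 0.0911, *Gnl3* by −0.10 ± 0.0989 and *Nhp2* by −0.16 ± 0.0861 (SE). SEs of this size leave room for differences as large as many of the changes above, so the values do not show that P+B and BI-9564 acted alike. Without BI-9564 replicate 2 the median turned to 0.04 and 15 genes were lower.

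The 36 genes also shared a difference between replicate numbers. Replicate 2 was higher than replicate 1 in 32 of 36 genes under DMSO, 29 under PFI-3, 31 under BI-9564 and 26 under P+B, by a median of 0.14, 0.13, 0.145 and 0.10 in log2. Over all tested genes the median was 0 in each group. In 21 genes (58.3%) replicate 2 was the higher one in all 4 groups, which was so for 11.1% of all tested genes. What a replicate number stands for is not given in the labels. The shift was of the same order as the changes with treatment, and *Jun* was also higher in replicate 2 of every group, at 2877 against 1970 under DMSO, 2227 against 1570 under PFI-3, 3011 against 2071 under BI-9564 and 2159 against 1569 under P+B. Of the 6 stem cell markers, 5 went the other way and were lower in replicate 2 of every group, among them *Nanog*, at 40 against 71 under DMSO. The part of these differences between replicates in the result was not tested beyond the block and the values within each number.

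Within the numbers, the order of treatments was the same. The median deviation of the 36 genes from their own means was 0.03 and 0.17 in the DMSO libraries, −0.02 and 0.09 under PFI-3, −0.11 and 0.03 under BI-9564 and −0.15 and −0.07 under P+B. DMSO was highest and P+B lowest among the libraries of each replicate number, although DMSO replicate 1 and BI-9564 replicate 2 lay at one level. Pairing by number, P+B against DMSO had a median of −0.13 in pair 1 and −0.26 in pair 2, and 30 of 36 genes were lower in both pairs against 25.7% of all tested genes. BI-9564 had −0.18 and −0.23, with 24 of 36 genes lower in both pairs, a larger share than the 27.2% of all tested genes. PFI-3 had −0.05 and −0.07, with 19 of 36 lower in both pairs, also a larger share than the 22.4% of all tested genes.

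**Figure D5:**
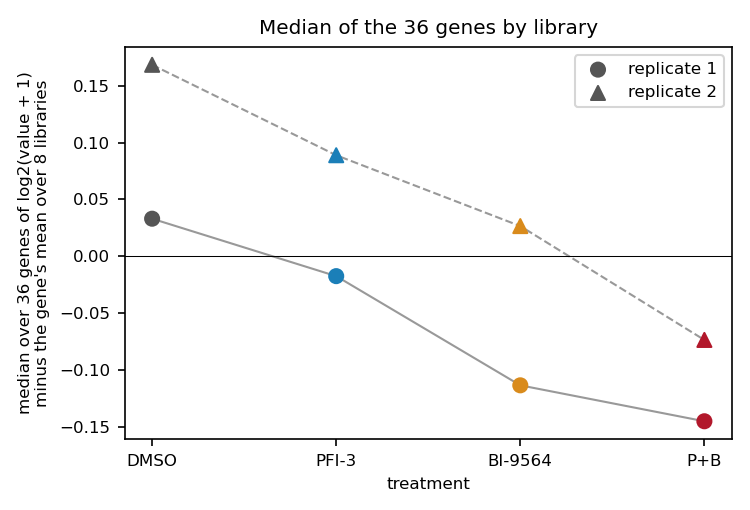
Median over the 36 genes of log2(value + 1) minus the mean of each gene over the 8 libraries (vertical axis), by treatment (horizontal axis), with lines joining the libraries of the same replicate number. Both lines go down from DMSO (0.03 and 0.17) to P+B (−0.15 and −0.07), and replicate 2 lies above replicate 1 in every treatment.

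The genes listed beside the 36 from the same pathway, which were taken from general knowledge of it, lay nearer to 0. Of 152 listed, 146 were tested, and 98 were lower with P+B, with a median of −0.07. Among all tested genes 41.7% were lower, with a median of 0.06, so the listed genes also lay below these. Large subunit factors had 41 of 51 lower (median −0.11) and small subunit factors 32 of 46 (−0.10), while the further RNA polymerase I genes had 5 of 16 lower (0.09). Further snoRNP genes (6 of 10 lower, 0.00) and those of the RNA exosome and RNase MRP (14 of 23, −0.03) lay near 0. In limma 1 of the 146 (0.685%, against 4.0% of all tested genes) was called with P+B, namely *Senp3*, a SUMO protease of the nucleolus that acts in large subunit maturation. *Senp3* had 234 and 214 under DMSO, 240 and 233 under PFI-3, 166 and 149 under BI-9564 and 149 and 148 under P+B, so that it fell by 0.59 on the log2 scale (SE 0.0887, limma adjusted p = 0.01032). The same gene was called against PFI-3 (−0.67, limma adjusted p = 0.01672). By the adjusted p alone 3 further large subunit genes were lower with P+B, namely *Tex10* (−0.53, limma adjusted p = 0.02862), *Eif6* (−0.45, 0.03299) and *Rsl1d1* (−0.36, 0.04014). With *Senp3* these are 2.74% of the 146, against 3.35% of all tested genes. With the replicate block 8 of the 146 (5.48%) were lower at an adjusted p under 0.05, against 6.73% of all tested genes, and 1 was higher. The share called was under the background, and both shares by the adjusted p alone were close to it.

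*Myc* is no member but a known regulator of these genes. It had 40 and 32 under DMSO, 26 and 25 under PFI-3, 32 and 33 under BI-9564 and 16 and 15 under P+B. With P+B it fell by 1.16 (SE 0.149, limma adjusted p = 0.005456), past both thresholds. With BI-9564 its change was −0.13 (limma adjusted p = 0.7195), and with PFI-3 it was −0.47 and not called. Both PFI-3 values of *Myc* lay below both DMSO values. Both BI-9564 values of *Myc* lay within the range of DMSO, and both P+B values lay below all others. *Mycn*, its relative in stem cells, had 14 and 10 under DMSO, 17 and 13 under PFI-3, 13 and 9 under BI-9564 and 17 and 14 under P+B, with a change of 0.36 (limma adjusted p = 0.4584). Of 11 tested genes of the MYC network, 6 were lower with P+B, with a median of −0.08.

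The 36 genes lie on 17 chromosomes, with at most 6 on 1 of them. In GENCODE M21, 7 of the 36 (19.4%) hold snoRNA genes inside their span on the same strand, 21 snoRNAs in all, against 2.1% of the 9999 tested names that were matched (210). *Nop56* holds 5, *Nop58* 4, *Wdr43*, *Ncl* and *Gnl3* 3 each, *Ppan* 2 and *Dkc1* 1. Among the hosted are *Snord57* and *Snord110* in *Nop56*, and *Snord19* and *Snord69* in *Gnl3*. The changes of these 7 hosts with P+B ran from −0.52 for *Gnl3* to −0.09 for *Ncl*, inside the range of the 36. In all, 14 of the 36 are overlapped by a gene on the other strand and 0 by another on their own strand.

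Promoter windows of RefSeq on GRCm38.p6, from 250 bases before to 50 bases after the start, were matched for 31 of the 36 genes. They were not used for *Fbl*, *Npm1*, *Bop1*, *Rrs1* and *Rrp12*. The E-box CACGTG, which reads the same on both strands, was in 6 windows (19.4%), against 11.13% of the windows of tested genes and 7.24% of all genes. The ETS motif CCGGAAG, searched on both strands, was in 10 (32.3%), against 21.26% and 9.12%. The AP-1 motif TGACTCA, the kind of site JUN binds, searched on both strands, was in 0, against 3.14% and 5.17%. None of these 3 motifs contains another, and all were chosen with results known. A window of the 36 held a median of 20 CG dinucleotides (6 to 56) and 58.0% GC, against 22 and 61.3% for tested genes and 7 and 52.7% for all genes. The 6 genes with an E-box were *Utp4*, *Mybbp1a*, *Nop2*, *Wdr43*, *Pes1* and *Utp20*. As each held 1, the 4 with the lowest adjusted p with P+B are shown with 30 bases around the motif, which is in capitals.
Utp4, chr8:106893643-106893672, plus strand: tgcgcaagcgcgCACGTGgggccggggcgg
Mybbp1a, chr11:72441347-72441376, plus strand: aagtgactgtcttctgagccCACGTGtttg
Nop2, chr6:125131811-125131840, plus strand: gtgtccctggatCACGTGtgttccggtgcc
Wdr43, chr17:71616220-71616249, plus strand: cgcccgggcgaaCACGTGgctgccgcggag
The motif begins 60 bases before the RefSeq start in *Nop2* and at base 16, 41 and 18 from the start in *Utp4*, *Mybbp1a* and *Wdr43*. The changes of these 4 genes with P+B were −0.35, −0.24, −0.31 and −0.18, within those of the 36 genes as a whole. The match is one of letters and does not show that a factor binds there.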

How the data were processed

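RNA-seq libraries of JUN TetON ESCs, 2 for each of 4 treatments, were made by the authors with a VAHTS mRNA-seq kit and sequenced on a NextSeq500. The submitters' processing notes name bcl2fastq, Bowtie2 2.2.5, RSEM 1.3.0 and mm10. Annotation, strand setting and the handling of reads with several matches are not given in the sources used here. Each deposited value is a score: a TPM of 1 gene name in 1 library, turned by the authors into a whole number. Depth cannot be had from it, which leaves counting error open, and no count test was run. Of 50600 names, 33075 were at 0 in all libraries and 187 rows had a repeated name.

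Groups were taken from the labels. Values were analysed as log2(value + 1) in limma 3.58.1 with R 4.3.3 (lmFit, eBayes with a trend), for genes with a mean of at least 5. All 8 libraries entered 1 fit of 4 groups with 4 residual degrees of freedom, and all 6 comparisons were adjusted by Benjamini-Hochberg, two-sided. A gene was called at an adjusted p under 0.05 and a fold of at least 1.5. An exact permutation test of 2 libraries against 2 cannot go below p = 0.3333 and was not used. Groups share replicate numbers. Across genes, the difference between replicates 1 and 2 of one group was correlated with that of every other (Pearson's r 0.143 to 0.236 over 6 pairs of groups). The numbers were therefore read as pairing the libraries, and a fit with replicate number as a block was run beside the main one. The procedure was tested on simulated data, where estimates were unbiased. Many genes given a larger change than any of the 36 genes showed were still not called at 2 libraries per group. How often changes as small as most of those seen here are missed was not tested.

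The 36 genes, the lists and the motifs were chosen with earlier results of these data known. Named in full were genes past the adjusted p in the fit with or without the block (the planned call with the fold left 0), and in each role the gene with the highest mean and that with the largest change with P+B. Beside these, called pathway genes, *Myc* and *Mycn* are named. Other genes with values (the rest of the 36, *Rsl1d1*, *Eif6*, *Tex10* and the markers) were named after their values were seen. Positions are from GENCODE M21 and sequences from RefSeq (GRCm38.p6). Python 3.11.15, pandas 2.3.3 and matplotlib 3.10.9 were used for positions, motifs and figures.

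Alternatives were the block, pseudocounts of 0.5 and 5, means of at least 1 or 20 or no filter, quantile normalization, median centring, no trend, only the 4 libraries compared, no fold threshold, and leaving out each library.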

Additional observations from a re-analysis of the deposited data

How the results depend on the processing

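The median change with P+B against DMSO was below 0 under every alternative run. The median change with P+B was −0.30 with median centring, which moved the median of all tested genes from 0.06 to −0.03, and −0.14 with quantile normalization, with 34 and 30 of 36 genes lower. Without 1 library it ranged from −0.29 (without DMSO replicate 1) to −0.12 (without DMSO replicate 2), with 24 to 34 genes lower. Leaving out 1 library gave −0.29 (without DMSO replicate 1) to −0.0852 (without DMSO replicate 2) for BI-9564, with −0.11 without BI-9564 replicate 1, and 23 to 31 genes lower. For PFI-3 it gave −0.11 to 0.01, with 17 (without DMSO replicate 2) to 33 genes lower. The medians were −0.18 to −0.09 for P+B against PFI-3, −0.13 to 0.04 for P+B against BI-9564, with 15 to 32 genes lower, and −0.15 to 0.00 for BI-9564 against PFI-3. Reversed signs were 0.0096 for PFI-3 without DMSO replicate 2, 0.0387 for P+B against BI-9564 without BI-9564 replicate 2 and 0.0036 for BI-9564 against PFI-3 without BI-9564 replicate 1.

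With the fold threshold, median centring called 2 genes with P+B (*Polr1b* and *Gnl3*). Centring moved every change with P+B against DMSO down by the same amount. The change of *Gnl3* went from −0.52 to −0.61, past the fold threshold. With no fold threshold 4 were called with P+B. The replicate block without the fold gave 11 with P+B, 5 with BI-9564, 4 for P+B against PFI-3 and 1 for BI-9564 against PFI-3, and changed no other count of called genes among the 36. The 4 lower genes at an adjusted p alone became 11 with the replicate block, 9 with median centring, 6 with a mean of at least 20, 2 with a mean of at least 1, 1 with quantile normalization, 0 with no filter, 0 without a trend and 0 with only the 4 libraries compared. Leaving out each library in turn gave 0 to 2. The count at an adjusted p alone, the count of lower genes and the block without the fold were added after the data were seen. The adjusted p rose above 0.05 in 6 of 8 such fits for *Nhp2*, 4 for *Gnl3* and 8 for *Ftsj3* and *Rrp1b*, with no change of sign. Fits without a library have fewer samples, and a lone library is then taken to vary like the other groups. The small groups of 2 libraries and an unknown depth limit every value.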
